A study of Mus musculus with 48 samples.

Results

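The comparison was between fibroblasts without Zfp36 (KO) and with it (WT) after 120 min of actinomycin D, an inhibitor of transcription. It rests on 10 of the 48 arrays of the series, 5 of each line, taken by their labels. Interest lay in transcripts whose difference between the lines was larger at 120 min than at 0 min, apart from differences that the lines already had and kept.

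Both lines came from littermate mouse embryos of stage E14.5 (whole embryo without head and organs), the offspring of TTP +/- parents of strain 129/B6, and are labelled TTP KO (Zfp36 -/-) and TTP WT (Zfp36 +/+). The labels read as 1 cell line per genotype, so the genotype and any other difference between the lines cannot be told apart. All groups used here were held for 16 h in 0.5% serum and then given 10% serum for 90 min; the 0 min groups were taken at that point and the 120 min groups after 120 min of actinomycin D. For actinomycin D the sample labels state 0.5 µg/ml and the series text 5 µg/ml, and which was used is unresolved. Each sample pooled 3 dishes of 100 mm. There were 5 experiments, each on its own day and with WT and KO treated in parallel, and the replicate number of a sample is taken here as its experiment. WT had 5 arrays at 0 min and KO had 4 (no experiment 5). The p-values below measure the spread between these repeats of 1 line each.

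Zfp36 encodes tristetraprolin (TTP), a zinc finger protein that binds AU-rich elements in the 3′ ends of mRNAs and recruits enzymes that shorten the poly(A) tail. In fibroblasts its own mRNA is induced by serum together with many short-lived mRNAs. Once transcription is blocked, the level of an mRNA follows mainly from how fast it is lost.

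Signals are given on a log2 scale, where a difference of 1 is a factor of 2. They are relative to the other transcripts on the same array, and values near 8.13, the highest 5th percentile of any array, carry little or no signal, so that folds ending there are compressed. "Gain" is the KO minus WT difference at 120 min minus that at 0 min. Counts use limma with the experiment as a block over all 48 arrays, with a threshold of 0.05 on p adjusted over the 27459 probe sets tested.

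The KO arrays of experiments 4 and 5 stood apart from those of experiments 1 to 3. Over all times, 30 probe sets (0.109% of those tested) differed by more than 1 log2 unit between these KO arrays, against 7 (0.0255%) between the WT arrays. Tgfbi, a secreted matrix protein, lay at 10.07, 10.17 and 10.14 in the KO arrays of experiments 1 to 3 at 120 min and at 8.48 and 8.44 in those of experiments 4 and 5, while the 5 WT arrays lay between 12.16 and 12.34. Of the 203 probe sets described below that gained a higher level in KO, 0 shifted by more than 1 unit between these KO arrays. At a share of 0.109%, a set of this size would hold few or none. Their median absolute shift was 0.083, against 0.052 over all probe sets tested, so they were not free of it. Fibroblast markers were present, with WT means at 120 min led by Vim at 13.18, Col1a2 at 12.47 and S100a4 at 12.35, but Lum lay near the array median at 8.39 and Thy1 was at background with 8.12. The mean signal of the 19 markers on the array was 11.17 to 11.28 over the WT arrays and from 11.005 to 11.18 over the KO arrays at 120 min. The corresponding ranges at 120 min in WT and KO were 8.43 to 8.53 and 8.39 to 8.41 for epithelial, 8.63 to 8.70 and 8.56 to 8.63 for muscle, 8.46 to 8.61 and 8.34 to 8.43 for endothelial, 8.52 to 8.66 and 8.48 to 8.65 for macrophage and blood, 8.86 to 8.95 and 8.99 to 9.06 for neural, and 8.66 to 8.87 and 8.59 to 8.68 for cartilage and bone markers. Xist, the RNA of the inactive X chromosome, had a mean of 10.36 in WT and 8.77 in KO at 120 min, and the Y-linked genes Eif2s3y and Uty lay at 8.61 and 8.73 in WT and at 8.63 and 8.67 in KO.

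At 120 min the lines differed widely, and most of that difference was there before actinomycin D. Of the 27459 probe sets, 6265 (22.8%) were higher in KO and 4672 (17%) were lower, a split that moved to 7179 higher and 3448 lower when each array was centred on its median and turned to 6223 higher and 6365 lower when no filter on low signals was used. At 0 min 4935 (18%) were higher and 4001 (14.6%) lower. In bulk RNA, fewer cells of a type and less RNA per cell cannot be told apart. A total of 3845 probe sets (14%) were called higher, and 2636 (9.6%) lower, at both times with a gain that did not pass the test. The fixed differences include the largest of all. Efemp1, an extracellular matrix glycoprotein, had values of 11.62, 11.96, 11.80, 11.93 and 11.98 in the WT arrays of experiments 1 to 5 at 120 min and 8.66, 8.78, 8.64, 8.71 and 8.61 in the KO arrays. Its difference was -3.23 ± 0.06 (SE) at 0 min and -3.18 ± 0.06 at 120 min, a 9.04-fold lower signal in KO at 120 min. The matrix metalloproteinase Mmp2 (-2.61 at 0 min and -2.56 at 120 min) and the membrane glycoprotein Emb (-2.27 and -2.46) were likewise lower throughout. On the other side were the cell cycle inhibitor locus Cdkn2a (2.00 at 0 min and 2.09 at 120 min), the tubulin gene Tubb2b (2.17 and 2.18) and the oxidase subunit gene Cyba (1.79 and 2.05). The gain of Cyba, 0.26 at an adjusted p of 0.0533 in limma, fell just short of the threshold, so its difference may not be fixed. The imprinted transcription factor gene Plagl1 was under the floor in all 5 WT arrays and at least 4.07-fold higher in KO at 120 min. Another probe set of Plagl1 was higher in KO by only 0.11 at 0 min and 0.29 at 120 min.

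Against this background, 203 probe sets (0.739%) gained a higher level in KO: the gain and the difference at 120 min were both above 0 and both passed the test. They name 171 genes. A gain without regard to the level at 120 min was called upward in 401 probe sets (1.46%) and downward in 127 (0.463%), with 198 (0.721%) narrowing from a lower and 95 (0.346%) from a higher level in KO. Of the 203, 111 (0.404% of those tested) had no call at 0 min, 61 were already higher in KO and 31 were lower in KO before actinomycin D. The 5 KO arrays at 120 min lay above all WT arrays in 159 of the 203 (12.7% of all probe sets tested), arrays on which the members had been chosen. Without the experiment as a block, 61 probe sets gained a higher level, and all 61 were among the 203. The members were chosen on all 5 experiments, so values in parts of them are no independent check. All 203 gains were above 0 both in experiments 1 to 3 and in experiments 4 and 5 fitted alone. Of all 27459 probe sets, 14530 and 12570 gains were above 0 in these fits. In experiments 1 to 3, 70 of the 203 gains passed the test, against 182 upward gains over all probe sets. Experiments 4 and 5 hold 1 KO array at 0 min. Leaving out single experiments gave between 63 (without experiment 1) and 334 (without experiment 3), with 106 without experiment 2, 76 without experiment 4 and 169 without experiment 5. The called gains nearest the threshold on adjusted p were Btg1 (0.40, adjusted p = 0.0491 in limma), Synj1 (0.25, 0.0489) and Efnb2 (0.55, 0.0486), and the nearest beyond it were Cdk2 (0.26), Ep300 (0.40) and Cdk8 (0.35), each at an adjusted p of 0.0501.

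**Figure D1:**
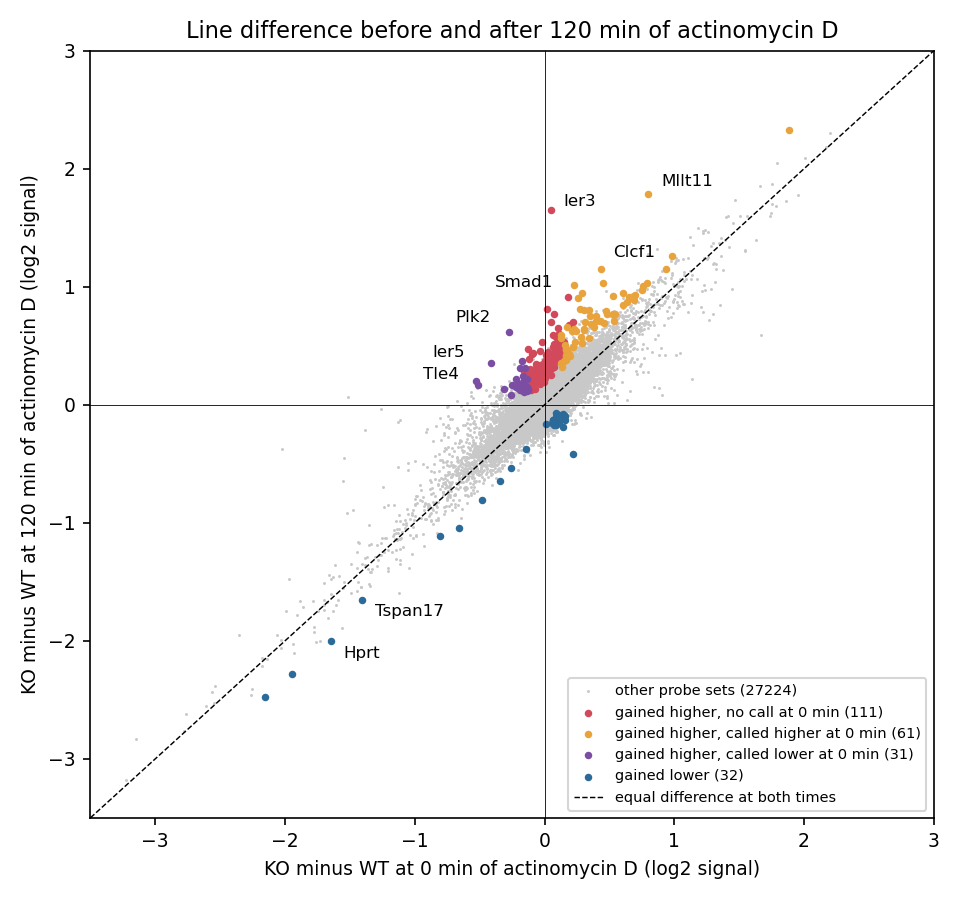
Each point is 1 of the 27459 probe sets tested, with the KO minus WT difference in log2 signal at 0 min on the x axis and at 120 min on the y axis; colours mark the 203 probe sets that gained a higher level in KO, split by their call at 0 min, and the 32 that gained a lower one. Most points lie along the dashed line of equal difference, Efemp1 at -3.23 and -3.18 among them, and Ier3 stands far above it at 0.05 and 1.65.

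In the 111 probe sets with no call at 0 min, the difference opened step by step. Their median KO minus WT difference was -0.01 at 0 min, 0.09 at 30 min, 0.13 at 60 min, 0.21 at 90 min and 0.32 at 120 min, and the members called higher numbered 37, 55 and 77 at 30, 60 and 90 min, where 18.3%, 14.3% and 17.4% of all probe sets were called. The signal fell in WT in 103 of the 111 (16.2% of all probe sets) and in KO in 54 (13.2%), and it rose in KO, relative to the array, in 14 (17.3%). The median change from 0 to 120 min was -0.50 in WT and -0.16 in KO. Of all 203, 0 rose in WT (15.4% of all probe sets). The gain is the KO change minus the WT change, so these changes follow in part from how the members were chosen and are given as a description.

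Ier3, an immediate-early gene whose product acts in cell survival, had the largest gain of the 203. Before actinomycin D its signal was 12.31, 12.26, 12.40, 12.26 and 12.28 in the WT arrays and 12.33, 12.36, 12.29 and 12.40 in the KO arrays, and the lines overlapped. At 120 min it was 9.83, 9.94, 10.21, 9.62 and 10.08 in WT and 11.54, 11.52, 11.49, 11.72 and 11.67 in KO. Every KO array then lay above every WT array by more than the range within either line. The signal fell 5.15-fold in WT and 1.70-fold in KO. The difference grew from 0.05 ± 0.11 (SE) to 1.65 ± 0.11, a 3.14-fold higher signal in KO, and the gain of 1.605 ± 0.155 had an adjusted p of 2.9e-09 in limma. It reached 0.50 at 30 min, 1.35 at 60 min and 1.72 at 90 min, so it did not widen between 90 and 120 min.

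Ifrd1, a transcriptional co-regulator induced by growth factors, had the next highest gain among those with no call at 0 min, 0.80 ± 0.17 (adjusted p = 0.0048 in limma). Its WT arrays at 120 min read 9.86, 10.44, 10.41, 9.74 and 9.95 and its KO arrays 10.92, 10.89, 10.85, 11.01 and 10.79. The WT arrays scattered more than the KO arrays (SD 0.32 against 0.08, n = 5 each), yet none reached the lowest KO array. The call was lost in 1 of the fits that leave out an experiment, where its adjusted p was 0.149.

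Plk3, a polo-like kinase of the stress response, fell in WT, and its change in KO did not pass the test. At 0 min the WT arrays lay between 9.43 and 9.80 and the KO arrays between 9.39 and 10.03. At 120 min the WT arrays read 8.72, 8.81, 8.98, 8.69 and 8.69 and the KO arrays 9.81, 9.79, 9.71, 9.64 and 9.51. The change was -0.77 ± 0.08 in WT and -0.04 ± 0.09 in KO, and the difference at 120 min was 1.88-fold. Most of it was present early: 0.65 at 30 min and 0.85 at 60 min. The gain was 0.73 ± 0.12 (adjusted p = 0.00015 in limma).

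Mcl1, an inhibitor of apoptosis with a short-lived mRNA and protein, fell in both lines. Its WT arrays went from between 11.14 and 11.30 at 0 min to 9.13, 9.67, 9.38, 9.37 and 9.38, a 3.57-fold fall. The KO arrays went from between 11.27 and 11.33 to 10.25, 10.27, 9.98, 9.98 and 9.96, a 2.27-fold fall, and the lines did not overlap at 120 min. The gain of 0.65 ± 0.10 (adjusted p = 8.5e-05 in limma) was shared by the other probe sets of the gene: 4 of its 5 others also gained a higher level, with gains from 0.29 to 0.65 over all 5. Those 4, unlike the probe set described, were already called higher in KO at 0 min, by 0.25 to 0.34.

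Cxcl1, a chemokine that attracts neutrophils, was one of the brightest members. The KO arrays read 12.13, 12.30, 12.27 and 12.42 at 0 min and 12.24, 12.30, 12.29, 12.36 and 12.41 at 120 min. The WT arrays fell from between 12.03 and 12.40 to 11.60, 11.79, 11.84, 11.41 and 12.07. The gain was 0.49 ± 0.09 (adjusted p = 0.00076 in limma), and both other probe sets of Cxcl1 gained a higher level too (0.45 and 0.48). Fitted alone, experiments 4 and 5 did not give a call for Cxcl1 (adjusted p = 0.635), whereas experiments 1 to 3 did.

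The remaining genes of the 14 with the highest gains and no call at 0 min had KO above WT at 120 min in 5 of 5 experiments. Lonrf1, a RING finger protein, fell 2.00-fold in WT and 1.24-fold in KO, with a gain of 0.69 ± 0.07. Maml1, a co-activator of Notch signalling, gained 0.55, and the dynein regulator Ndel1 gained 0.48. Net1, an exchange factor for RhoA, gained 0.60 and changed by -0.01 in KO. Cebpd, a transcription factor of the acute-phase response, gained 0.53; Pim3, a serine/threonine kinase, gained 0.53; Tob1, an antiproliferative protein that links mRNAs to the deadenylase complex, gained 0.49; and Efnb2, a ligand of Eph receptors, gained 0.55 with arrays of the lines overlapping at 120 min. The other probe sets of Maml1 (gain 0.25), Ndel1 (0.09), Pim3 (0.03 and 0.33) and Efnb2 (0.20 to 0.42) were not called as gained. Without the block the adjusted p in limma was 0.155 for Net1, 0.141 for Cebpd, 0.0855 for Tob1 and 0.411 for Efnb2.

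The host transcript of miR-22, Mir22hg, was in the same group. Its signal at 120 min was 8.85, 8.99, 8.76, 8.95 and 8.95 in WT and 9.39, 9.45, 9.30, 9.25 and 9.30 in KO. Every KO array lay above every WT array, and the gain was 0.53 ± 0.09 (adjusted p = 0.00032 in limma). The array measures the host transcript and not the mature miRNAs. These are shown to identify what the transcript carries; both lie on the plus strand of chromosome 11 in GRCm38.p6 (RefSeq), the 5p arm at chr11:75463734-75463755 and the 3p arm at chr11:75463772-75463793, and capitals mark the seed, bases 2 to 8.
mmu-miR-22-5p: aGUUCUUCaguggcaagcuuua
mmu-miR-22-3p: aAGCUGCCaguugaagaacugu

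**Figure D2:**
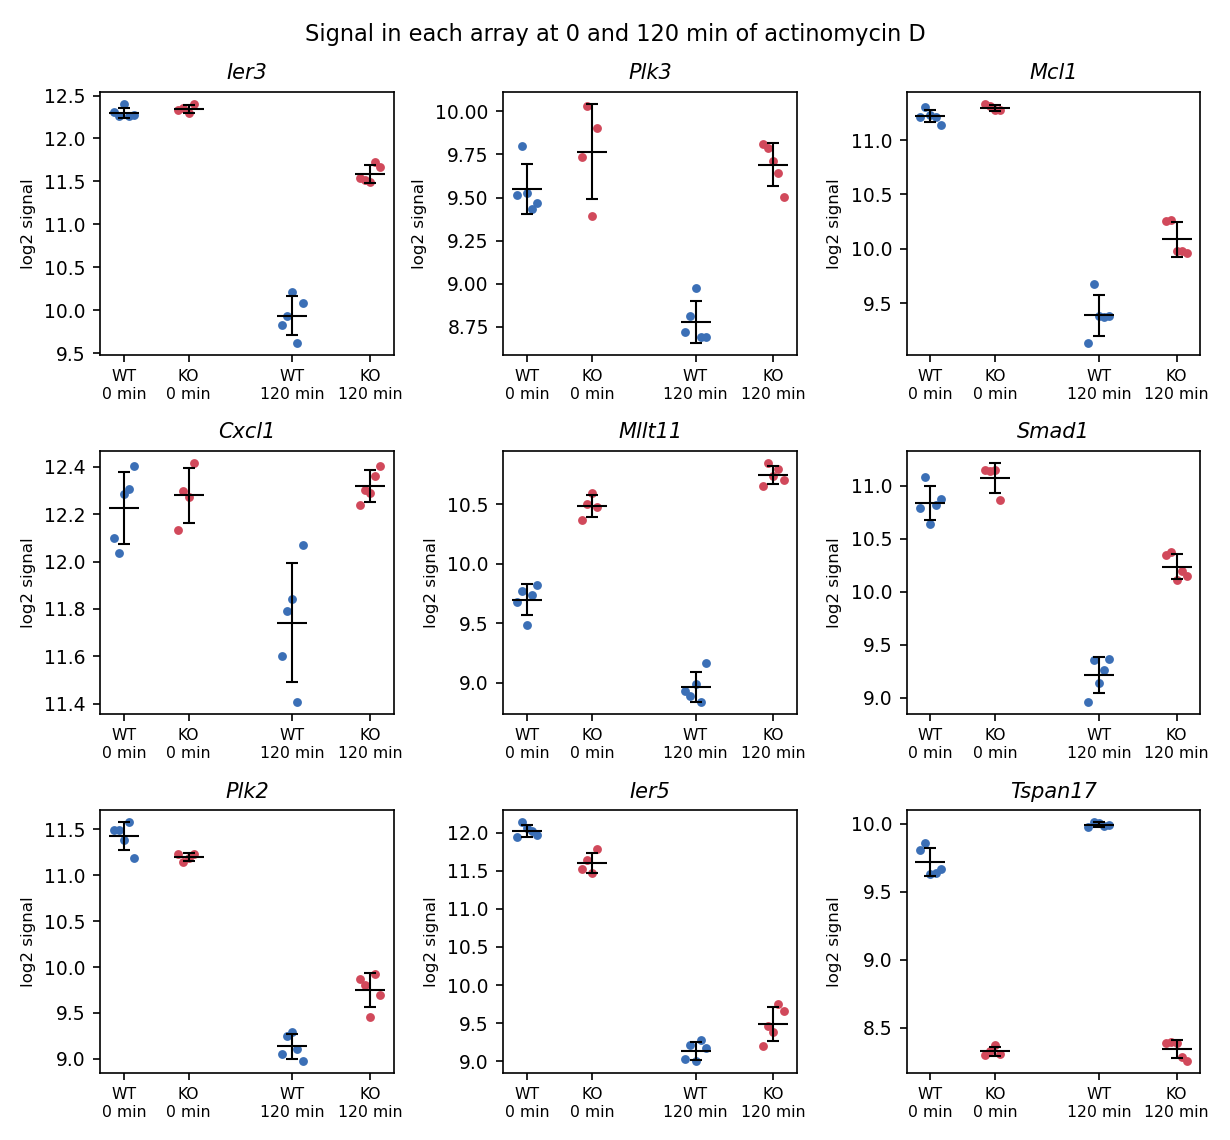
Each panel shows the log2 signal of 1 gene in every array of WT (blue) and KO (red) at 0 and 120 min, with the mean as a bar and the SD as whiskers (n = 5, and 4 for KO at 0 min); the y axes differ between panels and do not start at 0. Ier3, Plk3, Mcl1 and Cxcl1 overlap between the lines or nearly so at 0 min and separate at 120 min, Mllt11 widens a difference already there, Plk2 and Ier5 turn from lower to higher in KO, and Tspan17 stays low in KO.

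The 61 probe sets already higher in KO at 0 min widened their difference from a median of 0.34 to 0.71. Of the 61, 33 fell in WT (16.2% of all probe sets) and 31 rose in KO relative to the array (17.3%). As before, these changes follow in part from how the members were chosen. Mllt11, a cofactor gene first known from leukaemia fusions, had the largest gain of the 61. The WT arrays read 9.68, 9.77, 9.48, 9.74 and 9.82 at 0 min and 8.93, 8.89, 8.99, 8.84 and 9.17 at 120 min. The KO arrays read 10.36, 10.499, 10.59 and 10.48 at 0 min and 10.65, 10.85, 10.74, 10.80 and 10.70 at 120 min. The lines did not overlap at either time. The signal fell by 0.73 in WT, rose by 0.25 in KO (adjusted p = 0.0021 in limma), and the difference grew from 0.80 ± 0.06 to 1.78 ± 0.06, which is 3.44-fold. Its other probe set gained 0.10 and was not called.

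Smad1, which carries signals of bone morphogenetic proteins to the nucleus, went from 10.79, 11.08, 10.64, 10.82 and 10.87 to 8.96, 9.36, 9.14, 9.26 and 9.37 in WT. In KO it went from 11.15, 11.14, 11.15 and 10.86 to 10.35, 10.37, 10.11, 10.19 and 10.15. The lines overlapped at 0 min and were 2.02-fold apart at 120 min. It fell 3.08-fold in WT and 1.78-fold in KO, with a gain of 0.79 ± 0.10 (adjusted p = 1.5e-06 in limma), and 1 of its 2 other probe sets also gained a higher level. The remaining probe set of Smad1 gained 0.02 and differed by 0.34 at 120 min, with no call for either. Clcf1, a cytokine of the interleukin-6 family, gained 0.72 and was 2.22-fold higher at 120 min, where its KO arrays read 10.80, 10.91, 10.68, 11.42 and 11.10 against 9.72, 9.97, 9.72, 9.90 and 9.83 in WT. The other probe sets of Clcf1 (gains of 0.40 and 0.49) were higher in KO at both times with no call for the gain. Epha2, a receptor tyrosine kinase, gained 0.58 and was 2.04-fold higher at 120 min. Rabgef1, an exchange factor of endosomal Rab5, gained 0.47, and both its other probe sets gained a higher level as well. Without the block the adjusted p of the gain in limma was 0.0502 for Clcf1, 0.0511 for Epha2 and 0.0669 for Rabgef1. The call of a higher level at 0 min was lost in 10 of 16 alternatives for Rabgef1 and in 5 of 16 for Smad1. Without the block the adjusted p at 0 min was 0.193 for Rabgef1 and 0.0651 for Smad1 in limma. The highest difference at 120 min among all 203 was that of Ramp3, a receptor activity-modifying protein, at 2.33, named here after its value was seen; its WT means of 8.01 and 8.03 lay under the floor.

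In the 31 probe sets that were called lower in KO at 0 min the difference changed sign. The median difference went from -0.19 to 0.16. In WT 30 of the 31 fell (16.2% of all probe sets), which again follows in part from how the members were chosen. Plk2, another polo-like kinase and a target of p53, read 11.50, 11.49, 11.38, 11.58 and 11.19 in WT and 11.24, 11.14, 11.19 and 11.23 in KO at 0 min. At 120 min it read 9.05, 9.25, 9.29, 9.10 and 8.98 in WT and 9.87, 9.80, 9.45, 9.93 and 9.69 in KO. The lines overlapped at 0 min and did not at 120 min. It fell 4.90-fold in WT and 2.65-fold in KO, and the difference moved from -0.27 ± 0.11 to 0.61 ± 0.10, with a gain of 0.89 ± 0.15 (adjusted p = 0.00014 in limma). The call at 0 min, at an adjusted p of 0.0447, was lost in 10 of 16 alternatives, with 0.184 without the block, 0.0798 in experiments 1 to 3 and 0.28 in experiments 4 and 5.

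Ier5, an immediate-early gene of the stress response, showed the deepest falls of the named genes. In WT it dropped 7.40-fold, from between 11.94 and 12.14 to 9.03, 9.21, 9.01, 9.28 and 9.18. In KO it dropped 4.35-fold, from between 11.48 and 11.78 to 9.20, 9.46, 9.38, 9.75 and 9.66, and the lines overlapped at 120 min. The difference went from -0.42 to 0.35 (gain 0.77 ± 0.11, adjusted p = 2.6e-05 in limma). Both other probe sets of Ier5 had gains that passed the test (0.51 and 0.59) but were not called as gained higher. They narrowed from a lower level in KO to 0.02 and -0.04 at 120 min, with no call there, so they did not turn higher in KO. Rab9, a GTPase of late endosomes, went from -0.53 to 0.20, Tle4, a Groucho-family co-repressor, from -0.52 to 0.16, and Kdm3a, a histone H3 lysine demethylase, from -0.19 to 0.31. Rab9 had KO above WT at 120 min in 4 of 5 experiments, and with experiments 4 and 5 alone its difference at 120 min was -0.0175. The other probe set of Tle4 gained 0.32 and was not called. Without the block the call at 120 min was lost for Rab9 (adjusted p = 0.0763 in limma) and Tle4 (0.068), and the call at 0 min for Kdm3a (0.0885). The gain of Rab9 passed the test in both sets of experiments, as did those of Tle4, Kdm3a, Ier5 and Plk2.

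**Figure D3:**
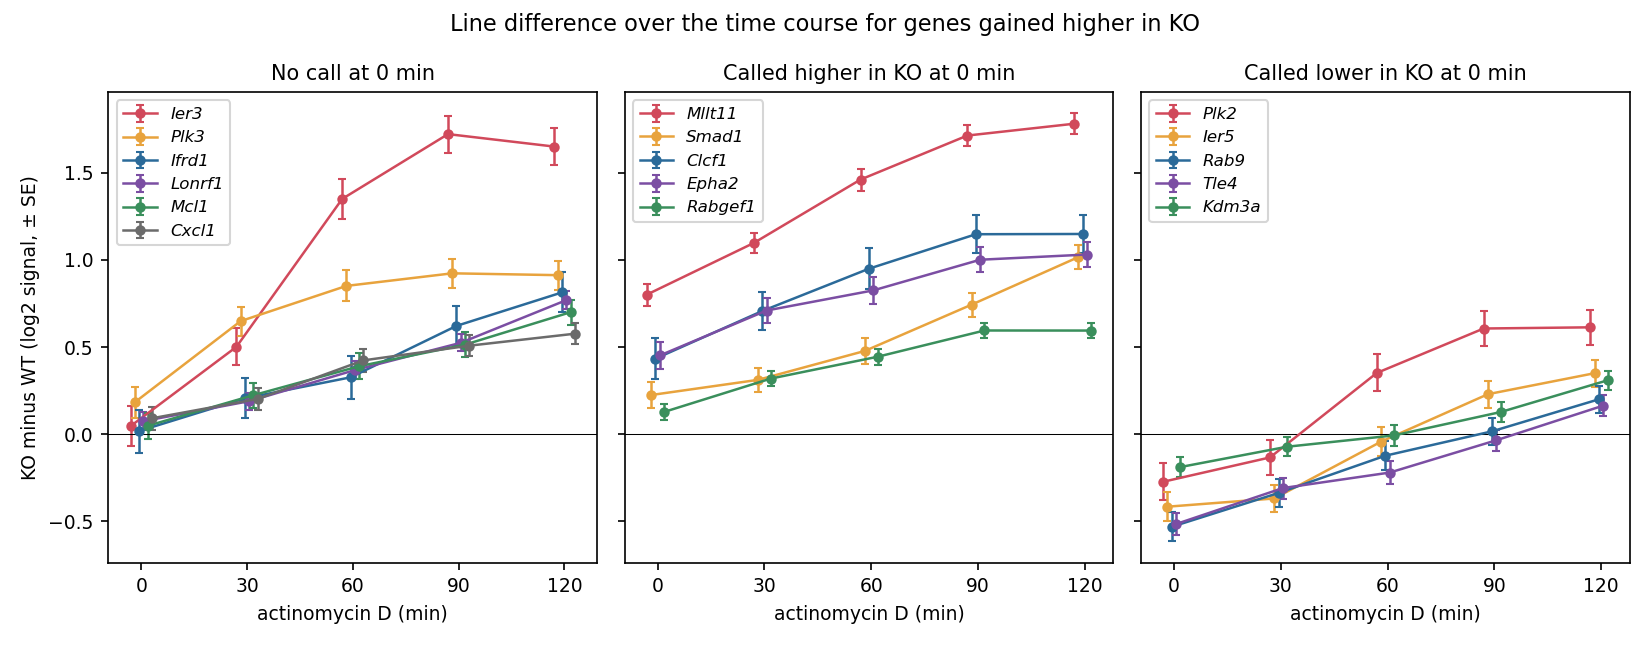
The y axis gives the KO minus WT difference in log2 signal with its SE from the fit, the x axis the minutes of actinomycin D (points of 1 time are set slightly apart), for genes that gained a higher level in KO, with a panel for each call at 0 min. Plk3 already stood at 0.65 at 30 min and Ier3 at 1.35 at 60 min, whereas Rab9 and Tle4 lay below 0 at 60 min (-0.12 and -0.22) and above it at 120 min (0.20 and 0.16).

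Counted by gene, with the brightest probe set of each, 133 of 13004 genes (1.02%) gained a higher level in KO: 77 with no call at 0 min, 37 already higher and 19 lower. For 17 of the 203 probe sets the gain passed the test in all of 4 fits, namely experiments 1 to 3, experiments 4 and 5, no block and a block within each line. These are Ier3, Mllt11, Plk2, Smad1 with 2 probe sets, Ier5, Rab9, Lonrf1, Tle4, Mcl1, Maml1, Socs5, Kdm3a, Rabgef1, Ahctf1, Mdm2 and Fbxo30. For Rabgef1 this was another probe set, with a gain of 0.49. The one described above lost its call without the block. For Socs5 it was not the brightest probe set of the gene. Experiments 4 and 5 hold 1 KO array at 0 min, and the 203 were chosen on these same arrays. Without the block an upward gain passed the test in 66 of the 203 and in 152 of all 27459 probe sets. The difference at 120 min was also called higher in all 4 fits for 13 of the 17, and not for Rab9, Tle4, Ahctf1 and Fbxo30.

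**Figure D4:**
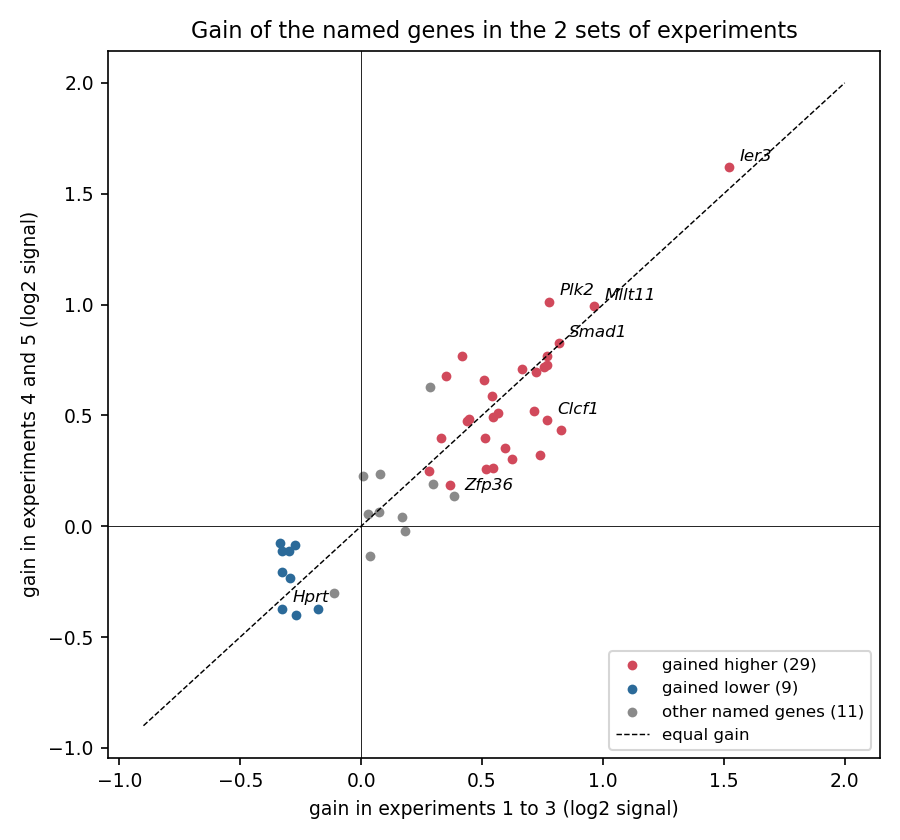
The gain in log2 signal of the 49 named genes is plotted for experiments 1 to 3 alone (x axis) and for experiments 4 and 5 alone (y axis, with 1 KO array at 0 min); red points gained a higher level in KO, blue points a lower one, grey points are other named genes. All red points lie above 0 on both axes, and Ier3 is the farthest out in both.

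RefSeq promoters of GRCm38.p6 were at hand for 115 of the 133 genes. The cyclic AMP response element, TGACGTCA, lay within 250 bases before the start of transcription, on either strand, in 7 of the 115 (6.09%), against 2.83% of the 10466 genes tested that have a promoter and 1.55% of all 32851 promoters. The AP-1 motif TGANTCA was in 1.74% against 5.92% and 6.75% and the TATAAA box in 8.7% against 8.92% and 12.4%. These matches are descriptions of the sequence, with no test. Among the named genes that gained a higher level, 24 of 29 had a promoter, and Birc2, Epha2 and Plk2 held the cyclic AMP response element. Shown for these are the 100 bases before the start, read along the gene's strand, with the element in capitals: chr9:7837058-7837157 on the minus strand for Birc2 (element 35 to 28 bases before the start), chr4:141301121-141301220 on the plus strand for Epha2 (33 to 26) and chr13:110394944-110395043 on the plus strand for Plk2 (62 to 55).
Birc2: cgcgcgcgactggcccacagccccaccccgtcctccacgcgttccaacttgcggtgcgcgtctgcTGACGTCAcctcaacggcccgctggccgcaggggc
Epha2: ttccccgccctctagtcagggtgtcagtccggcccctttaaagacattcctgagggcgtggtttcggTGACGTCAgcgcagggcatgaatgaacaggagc
Plk2: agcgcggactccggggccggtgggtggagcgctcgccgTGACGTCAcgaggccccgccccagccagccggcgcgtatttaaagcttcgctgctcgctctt

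Zfp36 itself fell to the floor in both lines. Its signal was 9.84, 10.14, 9.83, 9.69 and 9.83 in WT and 9.60, 9.58, 9.28 and 9.59 in KO at 0 min, and 8.17 ± 0.08 (SD, n = 5) and 8.11 ± 0.04 at 120 min. The KO line thus gave a Zfp36 signal at 0 min, lower by 0.37 ± 0.08; whether its probes lie inside the disrupted region is not stated in the labels, so this is no check of them. Its relatives encode proteins that bind the same elements. Zfp36l1 was higher in KO at both times (0.41 and 0.50). Zfp36l2 differed by -0.02 at 0 min and 0.39 ± 0.09 at 120 min (adjusted p = 0.00053 in limma), but its gain of 0.41 did not pass the test (adjusted p = 0.107). At 120 min its arrays read 10.24, 10.51, 10.56, 9.85 and 10.32 in WT and 11.08, 10.70, 10.67, 10.44 and 10.54 in KO, and they overlapped. The other probe sets of Zfp36l2 differed by 0.15 and -0.003 at 120 min, with no call. Of the 3 family members tested, 0 gained a higher level, where 1.02% of all genes did.

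Of 21 mRNAs reported elsewhere as TTP targets and tested here, 3 gained a higher level in KO, against 1.02% of all genes: Ier3, Plk3 and Cxcl1. The list was drawn up with results of these data known and Ier3 was followed up on these samples, so this is not independent evidence. At 120 min 7 were higher and 3 lower in KO, where 26.5% and 18.2% of all genes were called, and the median gain was 0.18, against 0.0001 over all 13004 genes. Lif, a cytokine of the interleukin-6 family, was higher at both times (0.80 and 1.28; gain 0.47, adjusted p = 0.25 in limma), as were Cxcl2 (0.21 and 0.43) and Ptgs2 (0.39 and 0.46). Several others had gains near 0, with Fos at -0.04, Myc at -0.01 and Hif1a at 0.001. Il6, whose KO arrays shifted by 1.495 between the sets of experiments, had a gain of 0.38 (adjusted p = 0.684).

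Targets of p53 and growth arrest genes had 4 of 21 members that gained a higher level, against 1.02% of all genes, and a median gain of 0.30. They were Plk2, Plk3, Phlda1 and Mdm2. Phlda1, a pleckstrin homology domain protein, fell 4.33-fold in WT and 3.10-fold in KO, to between 9.87 and 10.18 and between 10.59 and 10.99. Mdm2, the ubiquitin ligase that limits p53, had a smaller but even difference: 9.06, 9.19, 9.12, 9.09 and 9.13 in WT and 9.24, 9.30, 9.39, 9.37 and 9.39 in KO at 120 min. Its gain was 0.36 ± 0.06 and it was lower in KO by 0.14 at 0 min. Another 3 members, Gadd45g, Gadd45b and Trp53inp1, narrowed a lower level in KO, against 0.915% of all genes. Their gains of 1.17, 0.73 and 0.45 left them at -0.21, -0.01 and 0.08 at 120 min. Cdkn1a (-1.24 and -0.70), a cell cycle inhibitor, and Ccng1 (-1.17 and -1.11) were lower in KO at both times.

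Among regulators of survival and apoptosis, 3 of 20 gained a higher level (1.02% of all genes), namely Ier3, Mcl1 and Birc2, and the median gain of 0.06 was small. Birc2, an inhibitor of apoptosis that acts in NF-kappaB signalling, gained 0.27 ± 0.07. Its call was lost without the block (adjusted p = 0.379 in limma). Among 24 genes of BMP and TGF-beta signalling, 2 gained a higher level (Smad1 and Smad2), against 1.02% of all genes. In the same list 1 narrowed from lower (Bmp4, against 0.915% of all genes) and 3 from higher (Id2, Id4 and Smad6, against 0.446%). Smad2, which carries TGF-beta signals, read 8.93, 8.99, 8.95, 8.93 and 8.98 in WT and 9.23, 9.27, 9.25, 9.28 and 9.21 in KO at 120 min, where the lines did not overlap, and gained 0.30 ± 0.06. Its other probe set gained 0.16 and was not called. Id2, a target of BMP signals, narrowed from 1.30 to 0.77, Id4 from 0.52 to 0.27 and Smad6, an inhibitor of BMP signalling, from 0.18 to -0.05.

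The serum-induced regulators went both ways. Of 35 immediate-early transcription factor genes, 2 gained a higher level (Ier5 and Cebpd), against 1.02% of all genes, and the median gain was 0.07. In this list 1 narrowed from lower (Klf10, against 0.915% of all genes) and 4 from higher (Id2, Atf3, Klf2 and Per1, against 0.446%). Of 24 genes of MAP kinase and receptor feedback, 1 gained a higher level, against 1.02% of all genes. It was Spred2, an inhibitor of Ras signalling, with a gain of 0.44 ± 0.10. Its other probe sets (gains of 0.09 and -0.09) were not called. By their brightest probe sets, 4 genes narrowed from lower (Dusp4, Cish, Socs5 and Rgs16, against 0.915%) and 2 from higher (Dusp1 and Rgs2, against 0.446%). Another probe set of Socs5 gained a higher level, with a gain of 0.54 and a difference of 0.37 at 120 min. Dusp1, a MAP kinase phosphatase and reported TTP target, went from 1.13 above WT to 0.22 above it, with both lines near the array median at 120 min (8.41 in WT and 8.63 in KO). The cytokines, chemokines and growth factors gave 2 of 31 (Cxcl1 and Clcf1), NF-kappaB genes 1 of 16 (Birc2) and mRNA decay factors 1 of 37 (Tob1), and for each of these lists the share over all genes was 1.02%.

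None of the members of the other lists gained a higher level, where 1.02% of all genes did: glycolysis (0 of 13), matricellular and serum-response genes (0 of 16), fibroblast matrix (0 of 18), interferon response (0 of 14), Hox cluster genes (0 of 17), ribosomal proteins (0 of 44) and cell cycle genes (0 of 25). At that share, lists this short would hold few such members or none. The cell cycle list differed between the lines all the same, with 16 of 25 higher in KO at 120 min against 26.5% of all genes, and 14 of these also at 0 min with no call for the gain (17.4% of all genes). The cell type markers had no member that gained a higher level in KO (1.02% of all genes), and among the muscle markers Des gained a lower one (0.1% of all genes).

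**Figure D5:**
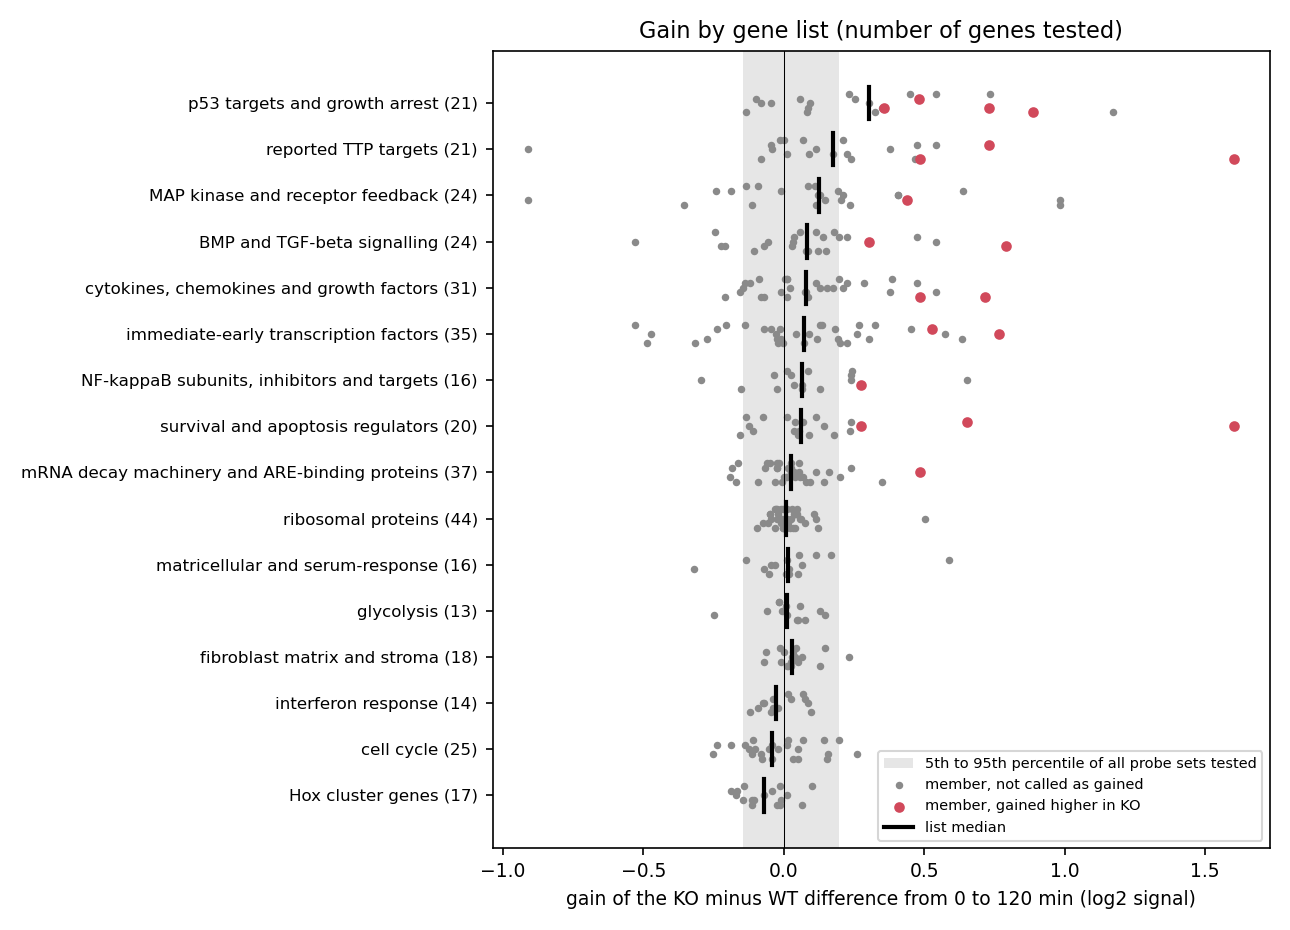
Each point is a gene of the list named on the left (number of genes tested in brackets), placed by its gain in log2 signal on the x axis; red points gained a higher level in KO, black bars are list medians, and the grey band spans the 5th to the 95th percentile of all probe sets tested (-0.15 to 0.20). Of the lists plotted, which leave out the TTP family, the sex-linked genes and the cell type markers, the p53 and growth arrest list has the rightmost median at 0.30, and ribosomal proteins sit within the band except for Rpl12 at 0.50.

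A lower level in KO was gained by 32 probe sets (0.117% of those tested), and by 13 of 13004 genes (0.1%). Their gains were small, with a median of -0.24. The signal rose in WT relative to the array in 20 of the 32 (15.4% of all probe sets) and fell in KO in 13 (13.2%). These changes too follow in part from how the members were chosen. Without the block 6 gained a lower level, and of the 32, 1 had a gain called both in experiments 1 to 3 and in experiments 4 and 5. Hprt, the purine salvage enzyme, read 10.21, 10.25, 9.93, 10.11 and 9.93 in WT and 8.32, 8.71, 8.35 and 8.38 in KO at 0 min, and 10.35, 10.31, 10.28, 10.39 and 10.40 against 8.33, 8.33, 8.31, 8.37 and 8.38 at 120 min. The lines were far apart at both times, and the difference went from -1.65 ± 0.06 to -2.00 ± 0.05. Tspan17, a tetraspanin, went likewise from -1.41 to -1.65, with KO near 8.34 at both times and a rise of 0.27 in WT.

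Nr1d1, a nuclear receptor of the circadian clock, turned from 0.16 above to 0.13 below WT and fell in KO by 0.34, with overlapping arrays (8.44 to 8.67 in WT and 8.38 to 8.52 in KO at 120 min). Trim54, Siglecg, Tmem254a, Nutm1, Zfp628 and Des had gains from -0.30 to -0.20, and none of their group means at 0 or 120 min exceeded the 9.33 of Trim54 in WT. Of these genes, Nr1d1 and Hprt kept a called gain without the block. After subtraction of the background the calls of Hprt (adjusted p = 0.105 in limma), Trim54 (0.167), Siglecg (0.175), Tmem254a (0.0635), Tspan17 (0.559), Nutm1 (0.0648) and Zfp628 (0.062) were lost.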

How the data were processed

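Total RNA of 48 samples was hybridised to an Affymetrix mouse genome array, per the labels' protocols. The authors deposited 1 log2 signal per probe set and array, from 2 to 13.43; the log base was inferred from that range, and the authors' probe summary, background correction and normalisation are not given in the sources used here. The deposited scaling was kept, since array medians ranged only from 8.47 to 8.56. The number of arrays limits the precision.

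Of 45101 probe sets, 64 controls were left out and 27459 were tested, those that exceeded their array's median on 4 or more arrays. The platform annotation gives 1 symbol for 23111 of them, several for 678 and none for 3670. limma 3.58.1 (R 4.3.3, with the data.table package, version 1.17.8; trend and robust) fitted a mean per line and time plus the experiment as a block over all 48 arrays (34 residual degrees of freedom). Tests were two-sided with Benjamini-Hochberg adjustment. Per gene, the probe set with the highest mean was used. The fit was tested on simulated data.

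The pairing comes from the series text, which puts both lines side by side in each experiment, and from the shared replicate numbers. Deviations of same-numbered KO and WT arrays from their group means correlated above 0.1 in 1 of 4 pairs at 0 min, 3 of 5 at 30 min, 4 of 4 at 60 min, 4 of 5 at 90 min and 4 of 5 at 120 min (-0.15 to 0.46), so the numbers may not pair every array, and counts are also given without the block.

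The comparison, members and gene lists were chosen with earlier results of these data known. Named genes were the TTP family and Ier3; the 14 highest gains with no call at 0 min and KO above WT in 5 of 5 experiments; the 5 highest gains each among those called higher and lower at 0 min; the 8 lowest gains among those that gained a lower level; the 4 highest and 4 lowest differences present at both times; and list members that gained. Alternatives were the block, the arrays in the fit, each experiment left out, scaling, background, filter and variance model.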

Additional observations from a re-analysis of the deposited data

Results flagged for a closer look

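The test of the gain itself called 401 probe sets upward and 127 downward; 203 and 32 of these also had a called difference of the same sign at 120 min. Among the named genes the difference changed sign, with both ends past the threshold, for Plk2 (gain 0.89), Ier5 (0.77), Rab9 (0.73), Tle4 (0.68), Kdm3a (0.50), Spred2 (0.44), Mdm2 (0.36), Nr1d1 (-0.29) and Zfp628 (-0.21). Both other probe sets of Ier5 had no call at 120 min. Without the experiment as a block 1 or both ends lost the call in limma for Plk2 (adjusted p = 0.184 at 0 min), Rab9 (0.0763 at 120 min), Tle4 (0.068 at 120 min), Kdm3a (0.0885 at 0 min), Spred2 (0.0553 at 0 min and 0.056 at 120 min) and Zfp628 (0.0656 and 0.0556).

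Single arrays stood apart from the rest of their group in 9 of 196 groups of the 49 named genes, where chance flags about 1 in 20 groups. In KO at 0 min these were experiment 3 for Zfp36 (9.28, nearest array 9.58), experiment 2 for Hprt (8.71, nearest 8.38) and experiment 4 for Smad1 (10.86, nearest 11.14), Clcf1 (11.33, nearest 10.75), Tgfbi (8.40, nearest 9.69) and Spred2 (9.94, nearest 9.62). In WT at 0 min they were experiment 2 for Plk3 (9.80, nearest 9.53), experiment 3 for Cyba (8.42, nearest 8.17) and experiment 5 for Phlda1 (12.36, nearest 12.15). Experiment 4 accounted for 4 of the 9, and its KO array is the only one at 0 min from experiments 4 and 5.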

How the results depend on the processing

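The count of probe sets that gained a higher level in KO (203 in the fit reported, 111 of them gained higher in KO with no call at 0 min, and 32 gained lower in KO) depended on the fit. With no replicate block, that is without pairing by experiment, it was 61 (42 and 6); with a block within each line 523 (264 and 110); with only the arrays at 0 and 120 min 55 (28 and 7); with experiments 1 to 3 alone 88 (54 without a call at 0 min); with experiments 4 and 5 alone 85 (50 and 11). Leaving out each experiment gave 63 to 334 that gained a higher level, 39 to 222 of them without a call at 0 min, and 10 to 106 that gained a lower level. Background subtraction gave 184 without a call at 0 min and 11 that gained a lower level, median centring gave 16 of the latter, and the filter at the 75th percentile gave 12, with 2688 lower at 120 min. Of the 203, the fit without the block shared 61 of its 61, that on 0 and 120 min 53 of its 55, that on experiments 1 to 3 67 of its 88 and that on experiments 4 and 5 49 of its 85. In experiments 4 and 5 alone the difference of Rab9 at 120 min was -0.0175. Called gains of the named genes kept their direction in every alternative run, whereas the uncalled gains of Tubb2b, Tgfbi and Cdkn2a changed sign in some (to -0.134 for Tubb2b in experiments 4 and 5); 647 values kept their side of the threshold, 126 lost the call and 5 passed anew. Signals near 8.13 carry little information, and a missing call there is no evidence of equal levels.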

Other observations

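The gain also passed the test where the lines started apart and converged. From a lower level in KO, 198 probe sets (0.721%) narrowed their difference. Irx3, a homeobox transcription factor, went from -2.02 to -0.38, Nuak2, a kinase of the AMPK family, from -1.26 to -0.04, Arc from -1.55 to -0.45, and the stress gene Gadd45g from -1.38 to -0.21. From a higher level in KO, 95 probe sets (0.346%) narrowed. Dact1, a modulator of Wnt signalling, went from 1.67 to 0.60, Dusp1 from 1.13 to 0.22 and Chac1, a glutathione-degrading enzyme, from 0.91 to 0.08. Several of these ended near the floor in both lines, with means of 8.03 in WT and 8.11 in KO for Chac1 and 8.17 and 8.13 for Nuak2.

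Some genes tied to p53 by name or function were picked after their values were seen, because they gained a higher level. With no test of the group, they are no evidence on p53 genes as a set. In the p53 and growth arrest list, 4 of 21 genes gained a higher level, against 1.02% of all genes. In that list 10 were lower in KO at 0 min, and 5 were lower at both times with no call for the gain. Trp53bp2 and Ppp1r13b encode related p53-binding proteins; Trp53bp2 moved from -0.09 to 0.18 and Ppp1r13b from 0.07 to 0.39. Trp53bp1, a protein of the DNA damage response, moved from -0.19 to 0.17 and Apaf1, the scaffold of the apoptosome, from 0.05 to 0.42.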
